A study of Mus musculus with 10 samples.

Results

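The genes described here code for the amyloid precursor protein App, its homologue Aplp2, the enzymes that cut App, and the microtubule protein tau (Mapt). They were chosen by name in the authors' deposited table, and all 9 of 9 were found among its 24421 genes: App, Aplp2, Adam10, Bace1, Psen2, Ncstn, Aph1a, Psenen and Mapt. All 9 had means from 1055.5 (Psenen) to 25908 (Aplp2) normalized counts and were among the 16050 genes tested. The tissue was olfactory epithelium, the sensory lining of the nose, from untreated mice of the C57BL/6 background at 6 months of age. One group carried the human allele Apoe3 (4 biological replicates) and the other the human allele Apoe4 (6 biological replicates). Apoe codes for a lipid carrier protein, and its Apoe4 allele is the best known common genetic risk factor for late-onset Alzheimer's disease. The labels name the genotype only, and how the alleles were introduced, what drives them and the sex of the mice were not given in the sources used here. Sex-linked genes differed strongly between the groups, as given below, so sex and genotype cannot be told apart in any difference reported here.

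App is a membrane protein that can be cut along alternative routes. The alpha-secretase Adam10 cuts within the amyloid beta stretch and so prevents its release. The beta-secretase Bace1 cuts at the start of that stretch, and the gamma-secretase complex then cuts inside the membrane to set amyloid beta free. Gamma-secretase has a catalytic presenilin (here Psen2), the substrate receptor nicastrin (Ncstn), the scaffold Aph1 (Aph1a, Aph1b or Aph1c) and the small activating subunit Pen-2 (Psenen). Tau binds and stabilises axonal microtubules, and its aggregates form the tangles of Alzheimer's disease. Olfactory sensory neurons are renewed throughout life from basal cells, so the tissue holds neurons of all ages beside supporting cells and glands.

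The coding stretch that these enzymes act on is printed below to show where the cuts fall in the mouse transcript. It was taken from the GENCODE vM21 transcript App-201, whose reading frame codes for 695 residues, and covers 42 codons (residues 597 to 638). The stretch is split between exon 14 (chr16:84965670-84965720, GRCm38, minus strand) and exon 15 (chr16:84962794-84962868). Capitals mark the codons of residues 16 and 17 of amyloid beta, between which the alpha-secretase cuts. Bace1 cuts before the first codon shown and gamma-secretase near the last ones.
App amyloid beta stretch: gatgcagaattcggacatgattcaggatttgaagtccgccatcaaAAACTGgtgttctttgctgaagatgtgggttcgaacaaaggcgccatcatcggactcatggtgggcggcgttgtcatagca

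None of the 9 genes passed the authors' DESeq2 test of Apoe4 against Apoe3 (adjusted p under 0.05), while 0.779% of all genes tested did, 0.324% as higher and 0.455% as lower in Apoe4. At an unadjusted p under 0.05 there were 2 of 9 (App and Psenen), where 10.3% of all genes passed the same limit. Which genotype a positive fold change favours is unstated in the table. It was worked out from genes with a single read, and positive values are read here as higher in Apoe4. Values for App, Aplp2, Adam10, Bace1 and Mapt lay above 0. Values for the 4 gamma-secretase subunits Psen2, Ncstn, Aph1a and Psenen lay below 0. The median log2 fold change of the 9 in the authors' deposited table was 0.07, beside 0.0026 for all genes tested, of which 51.1% had positive values. In whole tissue, fewer cells of a type and less RNA per cell cannot be told apart.

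The deposited table averages all 10 libraries, and values per library were not analysed here. Group means were therefore derived from the mean over all libraries and the fold change, after approximately undoing the shrinkage towards 0 that the authors' model had applied. In the same way, the deposited standard error was turned into the spread between libraries of one genotype. This implied coefficient of variation ran from 5.97% for App to 11.1% for Psenen, with a median of 7.95% over the 9 genes and 11.7% over all genes tested. It includes counting error, and the authors' model can borrow the spread of other genes, so it is not a measured standard deviation. Depth, read from genes with a single read, ran from about 14900000 to 20100000 assigned reads per library and overlapped between the groups.

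App, the precursor itself, had a mean of 19847 normalized counts and ranked 53 of 16050 tested genes by mean. Its derived group means were 18941 in Apoe3 and 20451.5 in Apoe4. The difference was 7.98%, with a 95% interval from 0.12% to 16.4%. The authors' deposited table listed App at a log2 fold change of 0.10 (SE 0.05, adjusted p = 0.477). With that error, an increase of 14.7% would have been needed to pass over all genes tested.

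Aplp2, a homologue of App that is cut by the same enzymes but holds no amyloid beta, was the most abundant of the 9. Its mean was 25908 normalized counts (rank 38), with derived group means of 24639 in Apoe3 and 26754 in Apoe4. The difference was 8.58%, with a 95% interval from -1.80% to 20.1%. For Aplp2 the authors' deposited table listed 0.11 on the log2 scale (SE 0.07, adjusted p = 0.589). The estimates for App and Aplp2 were thus close to each other, and each interval reached to or near 0. Aplp1, the remaining homologue, is no member of the set and was named here after its value was seen. The authors' deposited table listed Aplp1 at -0.12 (SE 0.07, adjusted p = 0.558) and a mean of 19509 normalized counts. Whether Aplp1 differed from App and Aplp2 in its response was not tested, because values per library were not analysed here.

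Adam10, the main alpha-secretase of neurons, had derived group means of 1711 normalized counts in Apoe3 and 1890 in Apoe4. This was a difference of 10.5%, with a 95% interval from -0.066% to 22.1%. For Adam10 the authors' deposited table gave 0.13 on the log2 scale (SE 0.07, adjusted p = 0.487). Bace1, the beta-secretase, had derived group means of 2235 in Apoe3 and 2362 in Apoe4. The difference was 5.70%, with a 95% interval from -3.65% to 15.9%. The authors' deposited table gave Bace1 0.07 on the log2 scale (SE 0.06, adjusted p = 0.727). Both cutting enzymes of the first step therefore had positive estimates whose intervals included 0. On the deposited log2 scale, changes of 0.23 in Adam10 and 0.22 in Bace1 would have been needed to pass.

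The 4 gamma-secretase subunits had negative estimates. Psenen, the smallest subunit, had derived group means of 1156 normalized counts in Apoe3 and 989 in Apoe4, a difference of -14.5% with a 95% interval from -25.7% to -1.54%. The authors' deposited table listed Psenen at -0.18 (SE 0.08, adjusted p = 0.427), the smallest p of the 9 genes. Psen2, a presenilin, which carries the active site, had derived group means of 2998 in Apoe3 and 2715 in Apoe4. The difference was -9.41%, with a 95% interval from -20.4% to 3.06% and an adjusted p of 0.626 in the authors' deposited table.

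Aph1a, the scaffold subunit, was at 1121 in Apoe3 and 1045 in Apoe4 by derived group means. The difference was -6.75%, with a 95% interval from -16.2% to 3.70% (adjusted p = 0.699 in the authors' deposited table). Ncstn, the substrate receptor, was the gene with the smallest estimate. Its derived group means were 2359 and 2312, a difference of -2.00% with a 95% interval from -9.50% to 6.13% (adjusted p = 0.903 in the authors' deposited table). The interval of Ncstn leaves out a loss or gain of 10%, whereas that of Psenen reaches past a loss of 25%. The 4 subunits were thus measured with unequal precision. Their median log2 fold change was -0.10 per the authors' deposited table, and their summed derived levels were 7633 normalized counts in Apoe3 and 7061 in Apoe4.

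Aph1a has paralogues, which were set beside it and again named after their values were seen. Aph1b was listed at 0.15 (adjusted p = 0.439) and Aph1c at 0.05 (adjusted p = 0.893) per the authors' deposited table. Aph1b and Aph1c are near-identical neighbours, and the counting could have split reads between them. The estimates of Aph1b and Aph1c thus lay above 0 and that of Aph1a below it, and the difference between these genes was not tested.

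Mapt, the gene for tau, had derived group means of 1539 normalized counts in Apoe3 and 1754 in Apoe4. This was the largest positive difference of the 9, at 1.14 times the Apoe3 level with a 95% interval from -0.24% to 30.2% of change. The authors' deposited table listed Mapt at 0.16 (SE 0.08, adjusted p = 0.493). At this error an estimated increase of 27.3% would have been needed to pass, which the estimate for Mapt fell short of.

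**Figure D1:**
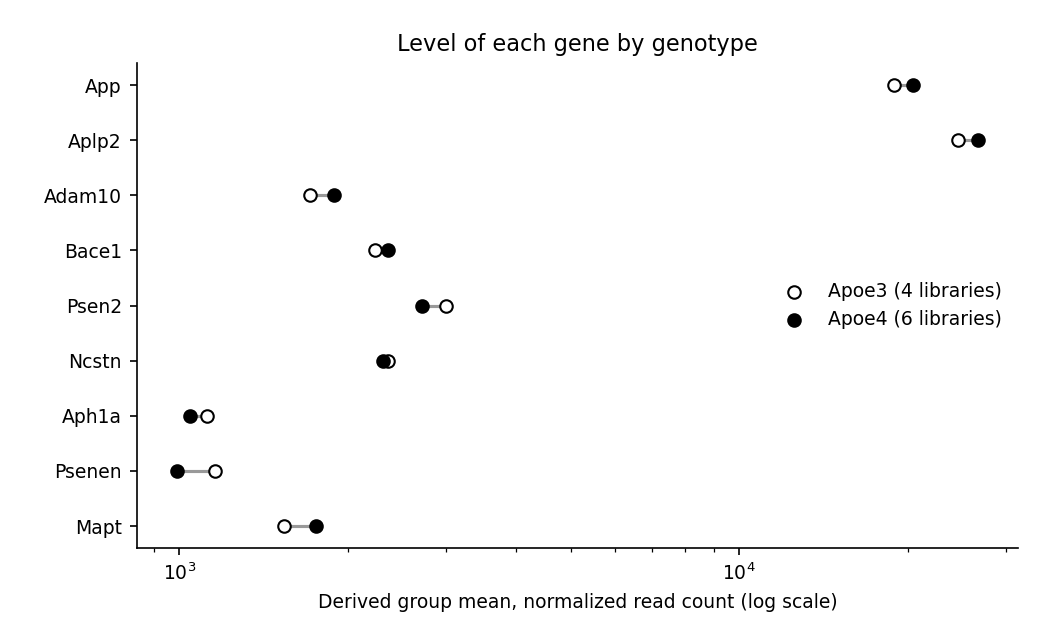
Derived group mean of each gene in normalized read counts on a log axis, with open circles for Apoe3 (4 libraries) and filled circles for Apoe4 (6 libraries). The filled circle lies to the right for App, Aplp2, Adam10, Bace1 and Mapt and to the left for Psen2, Ncstn, Aph1a and Psenen, and no difference passed the test.

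**Figure D2:**
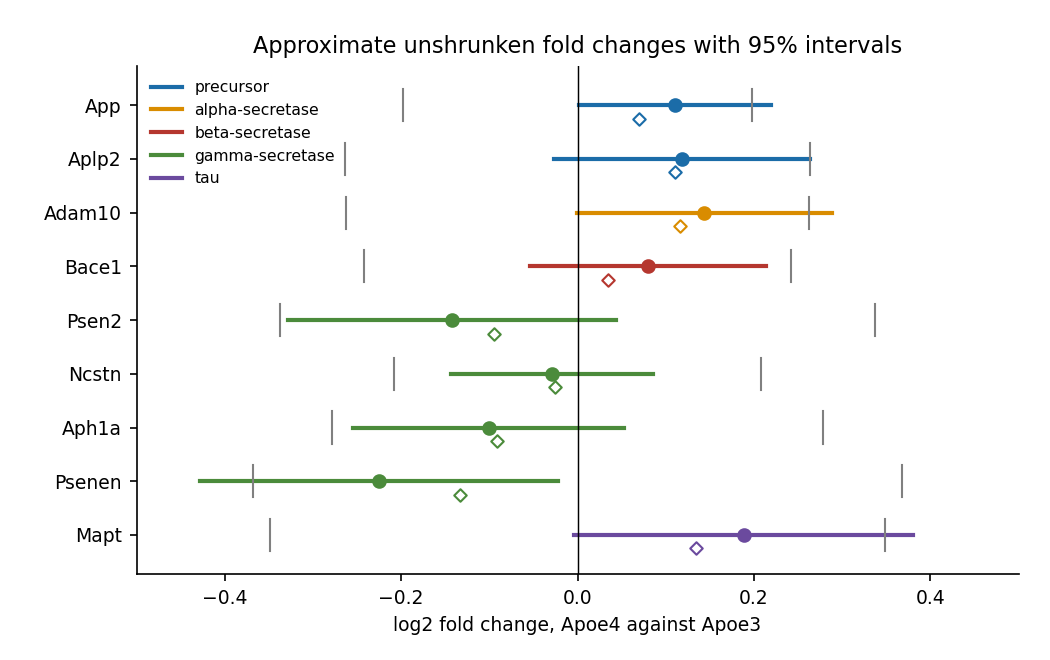
Approximate unshrunken log2 fold change of Apoe4 against Apoe3 (filled circles) with its 95% interval (bars), coloured by role. Open diamonds show the same estimate after the length trend was removed, and grey ticks mark the size needed to pass at each gene's error, which every circle falls short of.

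Transcript length ran alongside these directions. Over all genes tested, the deposited Wald statistic rose with the length of the longest annotated transcript (Spearman rho = 0.415 across 15969 genes; these share the same libraries and are no replicates). The gamma-secretase genes have short transcripts, with a longest form of 708 bases for Psenen, 2020 for Psen2, 2863 for Aph1a and 3016 for Ncstn. The other genes are longer, from 3634 bases for Aplp2 to 8167 for App. Among genes as short as Psenen (the lowest of 10 length bins), 23.7% had positive values. Among those as long as App (the highest bin), 77.3% had positive values. Removing a smooth curve of the statistic on length left every sign of the 9 genes as it was and brought all 9 estimates nearer to 0. After it, 0 of the 9 genes passed, beside 0.639% of all genes with a length, and 50.1% of those genes had a positive statistic. The part of length in the values of the 9 genes was not tested further.

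**Figure D3:**
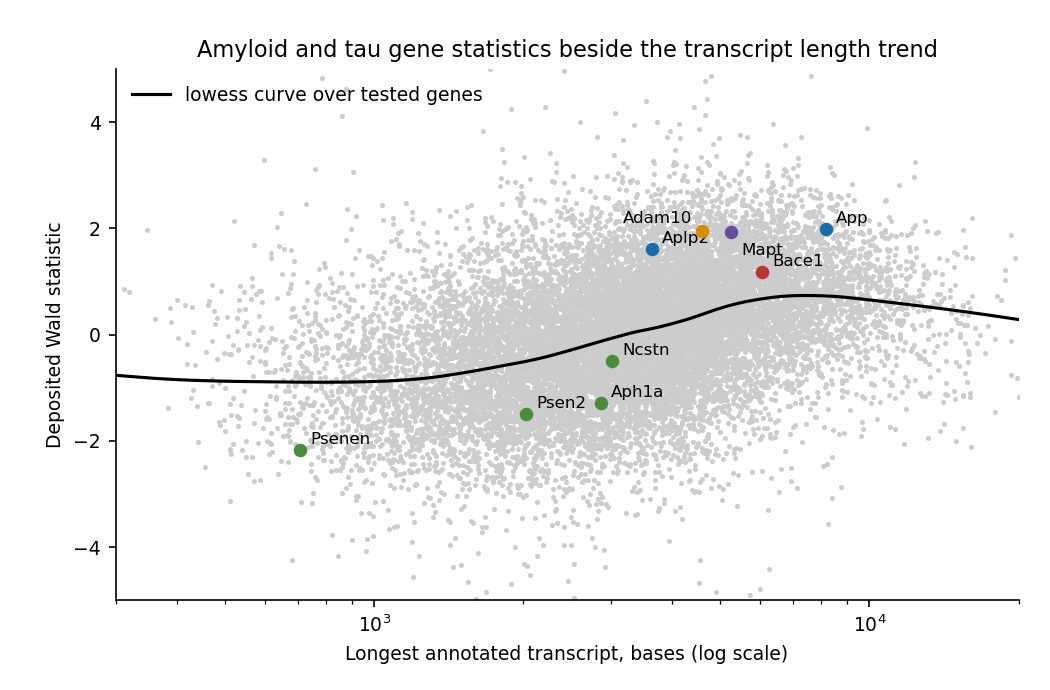
Deposited Wald statistic against the longest annotated transcript in bases (log axis) for tested genes (grey, with axes limited to the range shown), the lowess curve (black) and the 9 genes coloured by role. The 4 gamma-secretase genes lie below the curve at 708 to 3016 bases and the other 5 above it at 3634 to 8167 bases.

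Levels can be compared between genes only per length. By mean normalized count per kilobase of all annotated exons, Aplp2 was highest (4410), followed by App (1527), Psenen (828), Psen2 (653), Ncstn (586), Adam10 (370), Bace1 (364), Aph1a (312) and Mapt (221). Adam10 and Bace1 differed by 1.66%, less than the implied spread between libraries, and the other neighbours in this order differed by more than it. On this scale Mapt exceeded 73.3% and Aplp2 99.4% of tested genes with a length. The order depended on which transcripts were in use. With the median length of the annotated coding transcripts, Mapt stood in place 5 at 1155 and Bace1 came last at 572, whereas the first 4 places kept their order. On that scale the level of Aplp2 was 1.21 times that of App, against 2.89 times per kilobase of all exons.

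**Figure D4:**
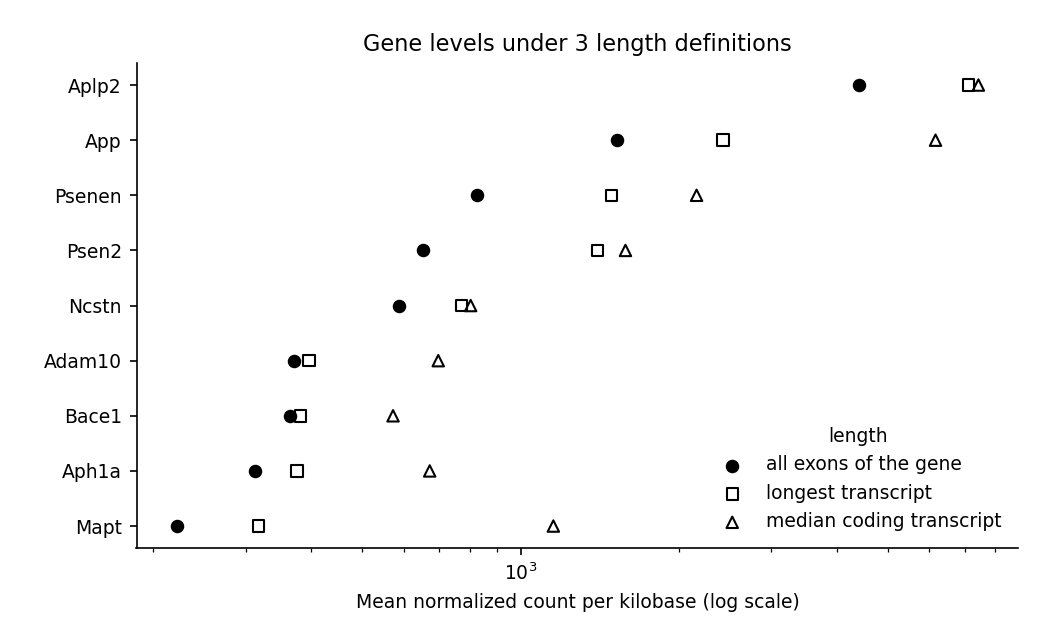
Mean normalized count per kilobase over all 10 libraries (log axis) for each gene, divided by the length of all exons (filled circles), the longest transcript (open squares) or the median coding transcript (open triangles). Aplp2 and App are highest under each length, and Mapt moves from 221 to 1155 with the length chosen.

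Several of the 9 genes share bases with a neighbour on the opposite strand, and the strand setting of the counting was not given in the sources used here. Exons of Rnf214 cover 15.4% of the exonic bases of Bace1, those of Car14 12.9% of Aph1a, those of U2af1l4 9.33% of Psenen and those of Copa 4.91% of Ncstn. Reads from these bases could have been left out or assigned to either gene. Car14 was at a mean of 7.17 normalized counts. In the authors' deposited table Rnf214 was listed at 0.06 (adjusted p = 0.771), U2af1l4 at -0.17 (adjusted p = 0.46) and Copa at 0.08 (adjusted p = 0.724). The value of U2af1l4 lay near that of Psenen, while Copa and Ncstn had opposite signs within the error. Gm10791, an antisense gene inside the span of App, shares no exonic base with it.

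The start regions of Psenen and Ncstn are shown because they hold part of the exonic bases shared with U2af1l4 (119 bases in all) and Copa (195 bases in all). Each is a RefSeq window of 300 bases (GRCm38.p6, minus strand), and capitals mark bases that lie in exons of both genes. The Psenen window is chr7:30563578-30563877 with 50 shared bases, and the Ncstn window is chr1:172082700-172082999 with 96 shared bases.
Psenen start region: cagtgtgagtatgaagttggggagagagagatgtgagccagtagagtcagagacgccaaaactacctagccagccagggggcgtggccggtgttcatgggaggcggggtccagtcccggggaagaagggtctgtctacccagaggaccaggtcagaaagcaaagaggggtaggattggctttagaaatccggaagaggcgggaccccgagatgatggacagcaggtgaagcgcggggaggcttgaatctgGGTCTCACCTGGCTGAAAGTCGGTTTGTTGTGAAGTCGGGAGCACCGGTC
Ncstn start region: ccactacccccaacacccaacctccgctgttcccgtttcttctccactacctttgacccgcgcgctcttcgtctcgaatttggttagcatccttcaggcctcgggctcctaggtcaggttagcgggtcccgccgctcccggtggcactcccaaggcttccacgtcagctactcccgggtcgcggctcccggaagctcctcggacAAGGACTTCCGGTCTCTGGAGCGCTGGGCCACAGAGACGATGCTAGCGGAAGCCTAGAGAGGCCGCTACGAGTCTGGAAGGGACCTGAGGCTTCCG

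RefSeq start windows matched 7 of the 9 genes (9 windows); Bace1 and Mapt were not matched. The GC box GGGCGG, searched on both strands, was in a window of 5 of these 7 genes, Psen2, Aph1a, Aplp2, Adam10 and App. Counted by window, it was in 5 of the 9 (55.6%) and in 35.7% of all 32851 windows of that length. Neither window of Psenen nor that of Ncstn held these letters. The letters TATAAA, searched on both strands, were in none of the 9 windows and in 13.6% of all windows. The median GC content was 63.3% in the 9 windows and 52.7% in all windows.

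By position the 9 genes are spread over 6 autosomes: App on chromosome 16 (84949685 to 85173766, GRCm38), Aplp2 on 9 (31149557 to 31211815), Bace1 on 9 (45838580 to 45864399), Adam10 on 9 (70678997 to 70780229), Psen2 on 1 (180227004 to 180263438), Ncstn on 1 (172066013 to 172082795), Aph1a on 3 (95893969 to 95898288), Psenen on 7 (30561863 to 30563627) and Mapt on 11 (104231390 to 104332090). All are annotated as protein coding. For App, Aplp2, Bace1, Adam10, Psen2, Ncstn and Aph1a, no gene past the threshold lay within 2 Mb. Psenen lies 10.9 Mb from the mouse Apoe gene on chromosome 7, and 4 of the 87 other tested genes within 2 Mb of it were lower in Apoe4. The nearest of the 4 to Psenen was Haus5, a spindle assembly protein 90.1 kb away, at -0.37 per the authors' deposited table (adjusted p = 0.0136). The others, picked after their values were seen, were Gapdhs, Dmkn and Alkbh6, at -0.39, -0.67 and -0.79 in the authors' deposited table. Once the length trend was removed, Haus5 (adjusted p = 0.0617) and Gapdhs (adjusted p = 0.165) did not pass, and Dmkn and Alkbh6 did. Of the 87 neighbours, 62.1% had negative values, with a median log2 fold change of -0.06. Over all genes tested, 51.1% had positive values and the median was 0.0026. Slc4a1, the red cell anion exchanger, was the nearest such gene to Mapt, at 1865 kb. Apoe itself was listed at -0.16 per the authors' deposited table (adjusted p = 0.579), with a mean of 249 normalized counts. The reads were set against the mouse genome GRCm38. Whether transcripts of the human alleles were counted in this value was not given in the sources used here.

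Among 12 other genes of the App and secretase families, Adam19 alone passed the test. Adam19, a metalloprotease that sheds membrane proteins such as neuregulins, rose by 0.30 on the log2 scale (SE 0.08, adjusted p = 0.0136), as the authors' deposited table lists it. Its adjusted p was 0.118 once the length trend was removed. Adam17, the other well-known alpha-secretase, did not pass, and the authors' deposited table gave it 0.16 (adjusted p = 0.419). The median log2 fold change of these 12 genes was 0.05, and 3 had an unadjusted p under 0.05.

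Of 30 genes for proteins that bind or sort App and Bace1, none passed the authors' DESeq2 test and 2 had an unadjusted p under 0.05. The median was 0.01. Apbb2, an adaptor that binds the tail of App, was listed at -0.21 (adjusted p = 0.313) per the authors' deposited table. Timp3, an inhibitor of metalloproteases, was at 0.19 (adjusted p = 0.461) and Picalm, an endocytic adaptor, at 0.11 (adjusted p = 0.557) per the authors' deposited table. Values of this group were spread on both sides of 0, with 16 positive and 14 negative.

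None of 21 genes for peptidases and carriers that clear amyloid beta passed by the authors' DESeq2 test, and 3 had an unadjusted p under 0.05. Plau, the urokinase that activates plasminogen, came nearest, and the authors' deposited table gave it -0.35 (SE 0.10, adjusted p = 0.0505). Cst3, the protease inhibitor cystatin C that binds amyloid beta, was at -0.26 (adjusted p = 0.174) and Mmp14, a membrane metalloprotease, at 0.22 (adjusted p = 0.329) per the authors' deposited table. The median of the 21 was 0.0052.

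Other substrates of the secretases gave no call either by the authors' DESeq2 test. Of 24 listed, 21 were tested, 3 had an unadjusted p under 0.05, and the median was 0.04. Efnb2, a membrane ligand of Eph receptors, was at 0.14 (adjusted p = 0.415), and Nrcam, a neuronal adhesion protein, at 0.20 (adjusted p = 0.476) per the authors' deposited table. Scn3b, a sodium channel beta subunit, was at -0.19 (adjusted p = 0.459) per the authors' deposited table.

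Genes that act on or beside tau were also without a call by the authors' DESeq2 test. Of 31 tested kinases and phosphatases of tau, none had an unadjusted p under 0.05, and the median was 0.02. The smallest p values belonged to the kinases Mark2 at 0.12 (adjusted p = 0.495), Mapk3 at -0.13 (adjusted p = 0.538) and Csnk2a1 at 0.13 (adjusted p = 0.561) per the authors' deposited table. Of 22 tested microtubule proteins, 2 had an unadjusted p under 0.05, and the median was 0.03. Dclk1, a doublecortin-like kinase, was at 0.20 (adjusted p = 0.304), Map7d1 at 0.14 (adjusted p = 0.415) and Map2, the dendritic relative of tau, at 0.16 (adjusted p = 0.506) per the authors' deposited table. The values of Map2 and Mapt were alike in sign and size, and neither passed. Map2 was named for its small p among the 22, of which 13 had positive and 9 negative values. Its likeness to Mapt is therefore no result about this group. The table holds 1 contrast and no values per library, so no gene could be ranked by how closely its pattern followed that of a gene of the set.

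**Figure D5:**
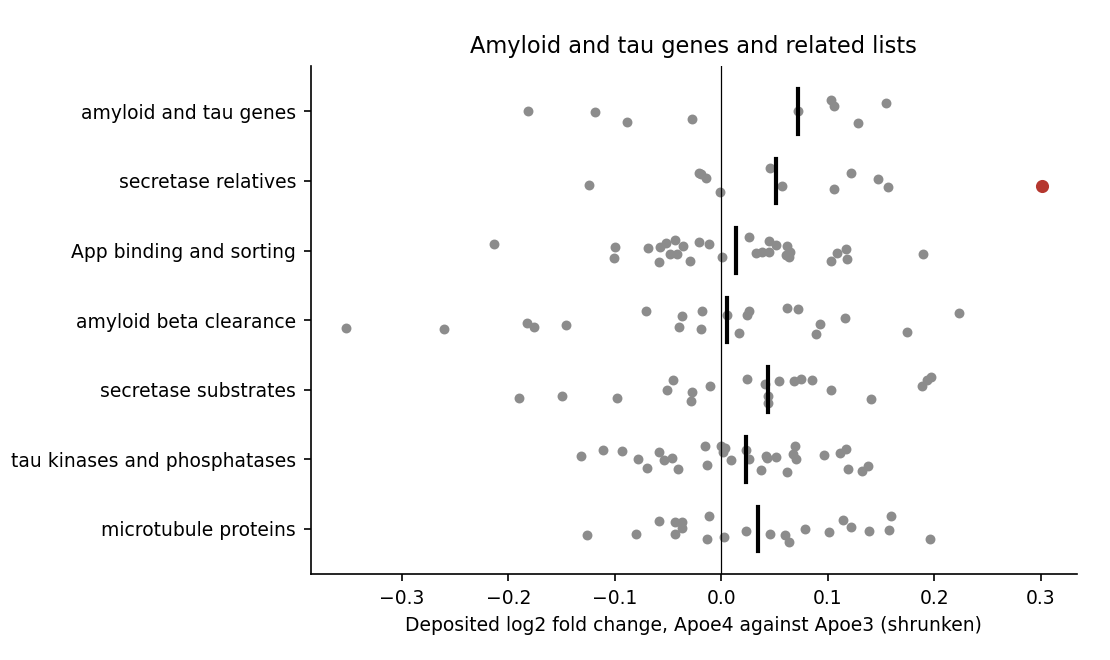
Deposited shrunken log2 fold change of each tested gene in the set and in 6 related lists, with list medians as black bars and genes past the threshold in red. Adam19 at 0.30 is the one red point, and the medians of the related lists lie between 0.0052 and 0.05.

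Other measures of the libraries moved with genotype. Of 12 sustentacular (supporting) cell markers, 2 were lower in Apoe4, Aldh1a7 at -0.27 and Cbr2 at -0.26 in the authors' deposited table, and the median was -0.13. Of the 12, 10 had negative values, and 7 had an unadjusted p under 0.05, all lower. The summed derived level of these 12 was 275008 normalized counts in Apoe3 and 255103 in Apoe4. Of 12 mature neuron markers none passed by the authors' DESeq2 test (1 had an unadjusted p under 0.05), with sums of 308075 and 297993. Omp, the olfactory marker protein, was at -0.06 per the authors' deposited table (adjusted p = 0.828). Of 12 immature neuron markers 1 passed as higher, Dpysl3 at 0.24 per the authors' deposited table (adjusted p = 0.0272). Of these 12, 2 had an unadjusted p under 0.05, 1 higher and 1 lower, and the sums were 25077 and 26209. The markers of basal cells, ensheathing glia and macrophages (8 each) gave no call by the same test, and 2, 2 and 1 of them had an unadjusted p under 0.05. Neither did the 8 tested of 12 markers of bulb and brain neurons, none of which had an unadjusted p under 0.05. The erythroid genes Alas2, Slc4a1 and Car1 were lower, at -0.46, -0.27 and -0.25 in the authors' deposited table. The 4 haemoglobin genes had a mean count of 0 over all libraries and were not tested. All 4 tested Y-linked genes were lower in Apoe4, from -2.80 (Kdm5d) to -3.72 (Eif2s3y) in the authors' deposited table. The derived group means of Eif2s3y were 744 in Apoe3 and 11 in Apoe4. The X-linked genes Kdm6a, Eif2s3x and Kdm5c were higher, at 0.75, 0.58 and 0.53 in the authors' deposited table. Xist, with a mean of 5026 normalized counts, was not tested. Sex and genotype therefore cannot be told apart. Once the length trend was removed, Cbr2 (adjusted p = 0.307), Dpysl3 (adjusted p = 0.144) and the erythroid marker Car1 (adjusted p = 0.176) did not pass. With the trend removed, 1 of the 12 immature neuron markers, other than Dpysl3, did pass. The part of these cell types in the values of the 9 genes was not tested.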

How the data were processed

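Poly(A)-selected RNA of 10 libraries was sequenced as paired reads, per the labels' protocols. STAR, featureCounts, DESeq2 and GRCm38 are named in the submitters' processing notes; the sources used here give no versions, settings, strandedness or annotation. What was deposited is 1 table with a line for each gene. Its mean column is a signal, the normalized count averaged by the authors over all libraries. The authors' log2 fold changes and log2 standard errors were deposited in a shrunken form, with errors reaching a ceiling of 0.105. The deposited score is the Wald statistic, and the deposited p-value is its two-sided normal p. The deposited adjusted p-values equal Benjamini-Hochberg values over 16050 genes. Genes marked low by the authors (8314) had means up to 9.99.

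The table does not name its direction. Genes with a single read had means at 10 levels (at least 10 genes each), 6 with positive and 4 with negative folds, so positive folds were read as higher in Apoe4. The design called for count tests if values per library were there; the authors' own test was used instead, at an adjusted p under 0.05. Shrinkage was undone approximately, taking a ridge prior with a standard deviation of 0.211 (2 times the ceiling of the error) and, of the possible roots, the smaller error. Intervals are 95% normal intervals. Lengths, spans and overlaps come from GENCODE vM21, which gave a length for 99.5% of tested genes. Length trends were removed with lowess (fraction 0.3, statsmodels 0.14.6, Python 3.11.15). These steps were tested on simulated data. Named genes were the 9 genes, Apoe, genes past the threshold or the 3 with the smallest p of each related list, the most abundant markers, overlapping genes and the nearest gene past the threshold within 2 Mb. The set and the lists were chosen with earlier results of these data known. The series' design text calls the libraries biological replicates; whether each is 1 animal or a pool was not given in the sources used here. Some genes of the lists are not reported here.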

Additional observations from a re-analysis of the deposited data

How the results depend on the processing

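None of the 9 genes passed under any alternative run: no filter on the mean, a mean of at least 50, leaving out X and Y genes, removing the trend with the longest transcript, centring on the median of all genes, and, added after the data were seen, removing the trend with exonic length. All 36 estimates of single genes under other settings kept their sign, with adjusted p from 0.418 to 0.976. For some settings this was fixed in advance. Undoing the shrinkage cannot change a sign and keeps the adjusted p as reported. Centring subtracts 0.0026, which is smaller in size than each of the 9 estimates. Only the settings that removed a length trend could have changed a sign. The runs with another filter or without X and Y genes changed only the genes adjusted over and kept each unadjusted p. By the authors' DESeq2 test the smallest of these among the 9 was 0.0295 (Psenen), whereas the largest p called as reported was 0.00037. These runs were therefore no real test of whether a gene passed. Leaving out X and Y genes also does not separate sex from genotype. The median of the 9 was 0.08 with unshrunken folds, 0.07 after centring and 0.03 with the length trend removed, beside 0.07 as reported. In the family of App and secretase relatives, 1 gene passed as reported and 0 with the length trend removed. Among amyloid beta clearance genes 0 passed as reported, and 1 (Plau, lower) with a mean of at least 50 (adjusted p = 0.0478) or after centring (adjusted p = 0.046). Its adjusted p was 0.0505 as reported, and under the other settings it ran from 0.054 to 0.136. The cause was not tested. At the errors of these genes, an estimated increase of 14.7% in App or an estimated loss of 22.5% in Psenen was needed to pass. How often a true change of a given size would be called was not worked out. No paired analysis was possible because the table holds no values per library; leaving out replicates and a second count tool could not be run for the same reason.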
